A study of Homo sapiens with 33 samples.

Results

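The genes described here encode 10 RNA-binding proteins of 3 families: ELAVL1, ELAVL2, ELAVL3 and ELAVL4, CELF1, CELF2, CELF4 and CELF5, and MBNL1 and MBNL2. They were taken by name from 44786 gene rows, and all 10 had a row. The study examined a D262V substitution in the low complexity domain of hnRNPA1, a nuclear RNA-binding protein that regulates splicing. RNA-seq covered 7 groups of 3 libraries each. SH-SY5Y cells, a human neuroblastoma line of sympathetic origin, were sequenced undifferentiated as wild type (WT) and homozygous D262V cells, and as WT, homozygous D262V and heterozygous D262V cells after a differentiation that used 10 µM retinoic acid and, in its last medium, 50 ng/mL BDNF, and that ended at day 18. Flp-In T-REx 293 cells, an embryonic kidney line in which tetracycline switches on an integrated transgene, expressed WT or D262V hnRNPA1 after 1 µg/mL tetracycline for 72 hr on top of their own hnRNPA1. RNA bound to hnRNPA1 was mapped by irCLIP, a crosslinking and immunoprecipitation method, in WT and D262V cells of both lines; each of the 4 cluster lists pooled 3 samples, and the labels do not give zygosity or differentiation state for the SH-SY5Y lists. The labels also do not say whether edited cells came from more than 1 clone or whether libraries came from separate cultures, so each test measures the spread between these libraries.

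ELAVL proteins, also called Hu proteins, bind AU-rich and U-rich elements and are known for stabilizing mRNAs and for splicing in neurons. ELAVL1 (HuR) is made in nearly all cells, while ELAVL2, ELAVL3 and ELAVL4 (HuB, HuC and HuD) are markers of neurons. CELF proteins bind GU-rich elements and MBNL proteins bind YGCY motifs; both regulate alternative exons, often in opposite directions, and loss of MBNL function together with raised CELF1 is a hallmark of myotonic dystrophy. Several of these genes have alternative exons of their own, which change where in the cell the protein goes or how it acts.

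Each gene was measured by its gene count, by reads over the splice junctions that the authors' junction tables list for it, and by the share of an alternative splicing event's reads that each junction took (usage, in %). The gene counts came from 1994575 to 15275303 reads in genes per library, and 92.24% to 94.61% of the uniquely aligned reads fell in no gene. The gene counts hold only a part of these genes' reads: the most covered single ELAVL4 junction had 19.07 to 34.4 times as many reads as the whole ELAVL4 gene count, depending on the group, and for CELF1 in SH-SY5Y cells the ratio was 3.076 to 9.475. The library kit is directional. No source used here states the strand setting of the counting, and the antisense row MBNL1-AS1 had a higher count per 1000000 reads in genes (9.16 on average in undifferentiated WT cells) than MBNL1 itself (1.19), whereas in Flp-In WT cells MBNL1 was the higher (42.5 against 31.4). Whether the counting used the strand of the transcript or the opposite one was not settled here. With the opposite setting the gene counts below would be reads of the other strand of each gene, so they are compared between groups and not read as amounts. Junction reads come from separate tables. Junction tables list only events with at least 1 junction at an unadjusted p under 0.05, so a gene with no listed event has no junction value.

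By gene counts per 1000000 reads in genes (CPM), ELAVL3, ELAVL4, CELF4 and CELF5 separated the cell lines. ELAVL3 had 49.79, 88.77 and 51.67 CPM in undifferentiated WT SH-SY5Y libraries and 0 reads in all but 1 Flp-In library, which had 1 read. ELAVL4 and CELF5 had 0 reads in all 6 Flp-In libraries. CELF4 had 31.6, 32.36 and 24.31 CPM in undifferentiated WT cells against 2.745, 9.024 and 3.597 CPM in the Flp-In WT libraries, so the lines did not overlap. ELAVL1 was the most evenly detected, between 53.6 and 103.9 CPM in SH-SY5Y libraries and between 26.75 and 46.57 CPM in Flp-In libraries. CELF2 showed the opposite distribution to ELAVL3, with 15, 8 and 3 reads in Flp-In WT libraries and 12, 9 and 18 in Flp-In D262V libraries, but 0 reads in 12 of the 15 SH-SY5Y libraries and at most 6 in the others. MBNL1 had 31.22 to 49.01 CPM in Flp-In libraries, 3.557 to 8.309 CPM in differentiated and 0 to 2.487 CPM in undifferentiated SH-SY5Y libraries. MBNL2 gene counts were low throughout, at no more than 24 reads in any library, as were those of ELAVL2 at no more than 12. In differentiated WT libraries the most covered listed junction had more reads, 43 to 84 for MBNL2 and 102 to 139 for ELAVL2. The 2 lines were counted in separate tables, so these levels are set side by side without a test.

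**Figure D1:**
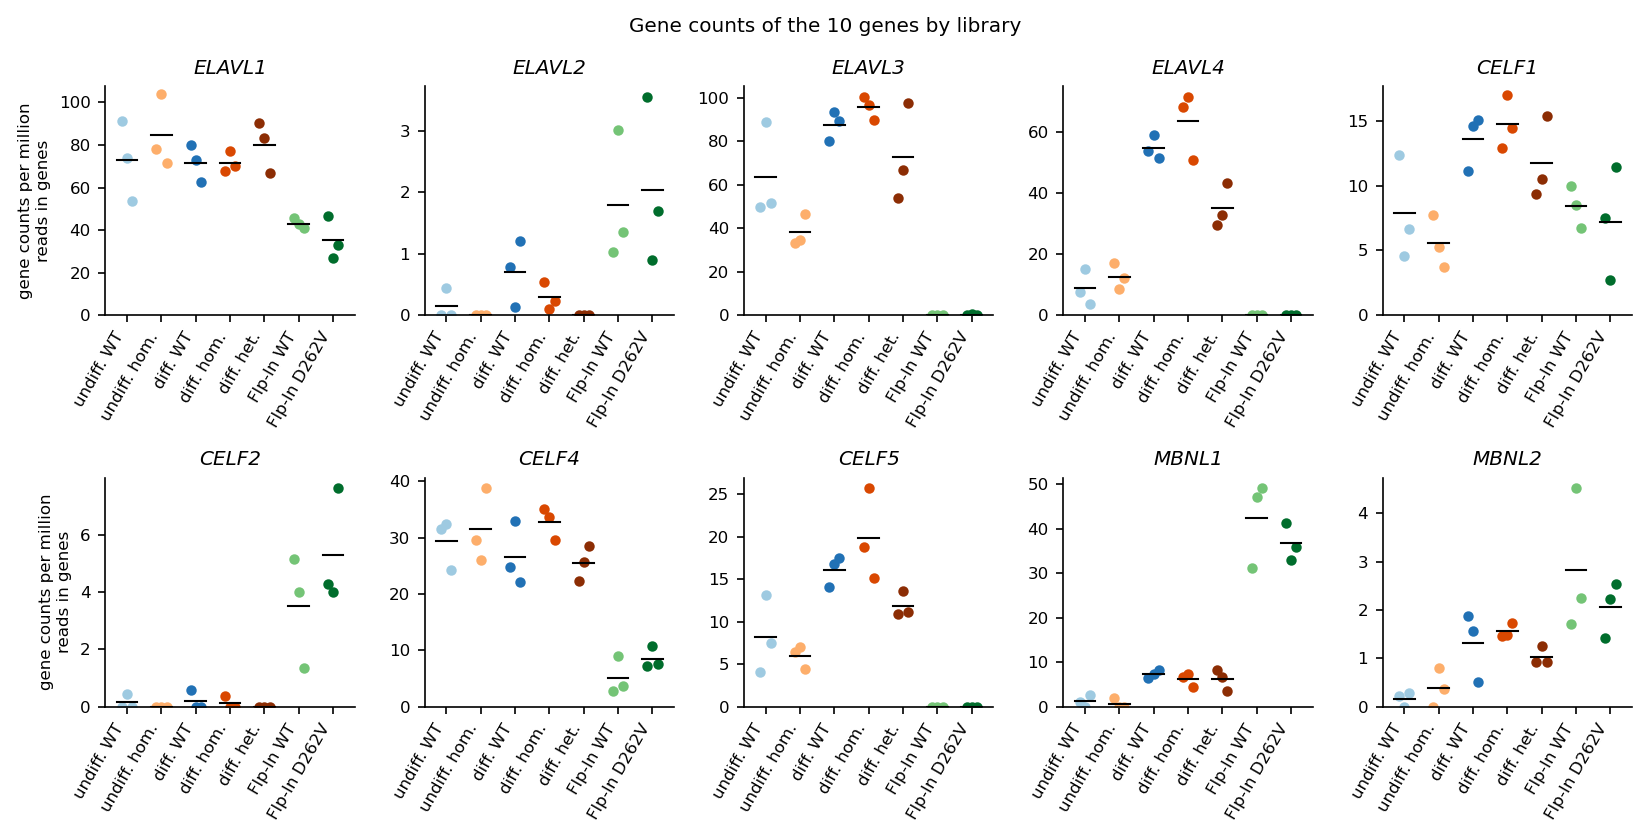
Gene counts per 1000000 reads in genes of each of the 10 genes (vertical axes, each with its own linear scale) in each library, by group; points are libraries and bars are means of 3. ELAVL3, ELAVL4 and CELF5 lie at or near 0 in the Flp-In groups, CELF2 has reads mainly there, and ELAVL4 separates differentiated from undifferentiated SH-SY5Y cells.

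Gene counts of sympathetic neuron markers were high in the SH-SY5Y libraries and low in the Flp-In libraries. The open question of strand given above holds for all gene counts of this paragraph. Over 10 sympathetic neuron genes, the summed level was 385.7 to 411.4 CPM in undifferentiated, 1205 to 1232 CPM in differentiated WT, 1401 to 1789 CPM in differentiated homozygous, 938.9 to 1256 CPM in differentiated heterozygous and 5.349 to 13.04 CPM in Flp-In libraries. Of 8 of these genes tested in differentiated cells, edgeR called 2 higher in homozygous than in WT cells, 4 higher in homozygous than in heterozygous cells, and 1 higher and 1 lower in heterozygous than in WT cells. HNRNPA1, whose row does not tell the alleles apart, had 25.32 to 46.24 CPM in SH-SY5Y libraries and 165.8 to 273.4 CPM in Flp-In libraries. Of 8 mesenchymal markers, 7 were tested in differentiated cells and 5 of them (SPARC, VIM, FN1, COL3A1 and SNAI2) were higher in heterozygous D262V than in WT cells by edgeR. The summed level of these markers was 90.41 to 96.04 CPM in heterozygous, 60.37 to 80.28 CPM in WT and 73.76 to 77.74 CPM in homozygous differentiated libraries. The glial list summed to 48.94 to 52.33 CPM in heterozygous and 29.43 to 36.72 CPM in WT differentiated libraries, with 1 of 5 tested markers called. In undifferentiated cells COL3A1 and VIM, 2 of 5 mesenchymal markers tested, were higher in homozygous than in WT cells, and the summed level of the list was 109.4 to 153.3 CPM against 60.51 to 74.26 CPM. The part of these markers in the results below was not tested, and in such bulk libraries fewer cells of a type and less RNA per cell cannot be told apart.

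ELAVL4, the HuD gene, rose with differentiation. Over the 22 of its junctions listed in both tables of homozygous cells, its reads were 1540, 1342 and 1647 per 1000000 shared junction reads in undifferentiated WT libraries and 9125, 8771 and 10430 in differentiated WT libraries. All 3 differentiated libraries were above all 3 undifferentiated ones. In edgeR's quasi-likelihood test the log2 difference was 2.45 (SE 0.129, adjusted p = 2.7e-07), and the gene counts gave 2.37 (SE 0.374, adjusted p = 9.9e-05). By gene counts ELAVL4 was the only member called of 8 tested, against 43.1% of all genes tested. MBNL1 (log2 difference 2.40, SE 1.06, adjusted p = 0.080) and MBNL2 (2.72, SE 1.31, adjusted p = 0.108) had estimates as large on few reads and did not pass. By junction reads both members tested were called, ELAVL4 and CELF4, against 62.2% of genes with shared junctions. Differentiation state coincides with separate tables and library sets, and with a fall in 6 of 7 proliferation markers, so these cannot be told apart.

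The start of the ELAVL4 transcript also differed with differentiation. ELAVL4, on the plus strand of chromosome 1 (hg38), has several alternative first exons, which give the protein different amino ends. In the junction tables, 6 donors described here as first exons and an internal 87-nt exon (chr1:50141771-50141857) were spliced to a shared 241-nt exon (chr1:50144956-50145196). The tables list 4 further donors into it, each with a mean of at most 1.29% of the reads in any group, and 1 of these (50121054) follows another RefSeq start. The RefSeq transcript starts (GRCh38.p14) lying within 500 nt upstream of 5 of these donors are at positions 50048055, 50103909, 50106231, 50108920 and 50109833, numbered here as first exons 1, 2, 4, 5 and 6 in order along the gene. First exon 3, with its donor at 50105950, had no such start. A junction from that donor also enters a 257-nt exon (chr1:50106136-50106392) that ends at the donor of first exon 4, so reads leaving first exon 4 do not all come from transcripts that start there. The 120 bases before the 4 starts whose use moved most are printed below on the plus strand, because they lie before exons used in opposite directions by the 2 states. The 4 were chosen after their usage was seen. Capitals mark matches to the CCAAT box, read on the minus strand as ATTGG.
First exon 1, chr1:50047935-50048054: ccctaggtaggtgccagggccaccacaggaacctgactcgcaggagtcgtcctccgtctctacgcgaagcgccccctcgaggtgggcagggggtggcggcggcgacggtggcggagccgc
First exon 2, chr1:50103789-50103908: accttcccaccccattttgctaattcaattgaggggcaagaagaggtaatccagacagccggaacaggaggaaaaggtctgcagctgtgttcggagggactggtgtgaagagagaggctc
First exon 4, chr1:50106111-50106230: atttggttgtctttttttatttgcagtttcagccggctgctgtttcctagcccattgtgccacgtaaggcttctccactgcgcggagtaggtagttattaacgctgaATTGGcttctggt
First exon 5, chr1:50108800-50108919: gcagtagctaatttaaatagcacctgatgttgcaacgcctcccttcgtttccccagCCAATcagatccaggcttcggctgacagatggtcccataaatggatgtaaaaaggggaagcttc
The sequence before first exon 1 was the richest in G and C, at 72.5%, against 52.5%, 46.7% and 48.3% for the others. CCAAT was found before first exons 4 and 5 only, among these 4, and 20.4% of 35116 RefSeq promoter windows of the same length hold it. Also searched on both strands was the TATA motif TATAAA, which 5.63% of the windows hold. The GC box core GGGCGG is in 34.0% of them, and the nuclear receptor site AGGTCA in 6.20%. These letters were not in the 4 sequences. Before first exon 6, which is not among the 4, AGGTCA was found on the minus strand, starting 62 bases before the RefSeq start.

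In WT cells the most used first exon passed from exon 5 to exon 2 with differentiation. First exon 5 took 41.88%, 32.59% and 38.14% of the reads into the shared exon in undifferentiated libraries, and 8.80%, 9.84% and 9.46% in differentiated ones. First exon 2 took 17.97%, 14.07% and 17.89% in undifferentiated libraries and 56.67%, 54.40% and 56.31% in differentiated ones. First exon 1 fell from 12.1% ± 3.8 to 0.97% ± 0.30 (mean ± SD, n = 3 per group), while first exon 4 rose from 1.46% ± 1.61 to 8.32% ± 0.80 and first exon 3 from 0.74% ± 1.28 to 6.36% ± 0.55. First exon 6 and the internal exon took smaller shares in differentiated cells, 7.42% against 2.83% and 24.1% against 16.1%. The groups did not overlap for any of these 7 donors, and the two-sided exact permutation test gave p = 0.1 for each, the smallest value that 3 against 3 libraries allow. Homozygous D262V cells showed the same exchange: first exon 5 at 38.6% ± 3.5 and 8.83% ± 0.16, and first exon 2 at 22.6% ± 2.3 and 64.2% ± 0.7, in undifferentiated and differentiated cells. The undifferentiated shares rest on fewer reads, between 176 and 317 for first exon 5 in WT libraries against 1773 to 2971 after differentiation.

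**Figure D2:**
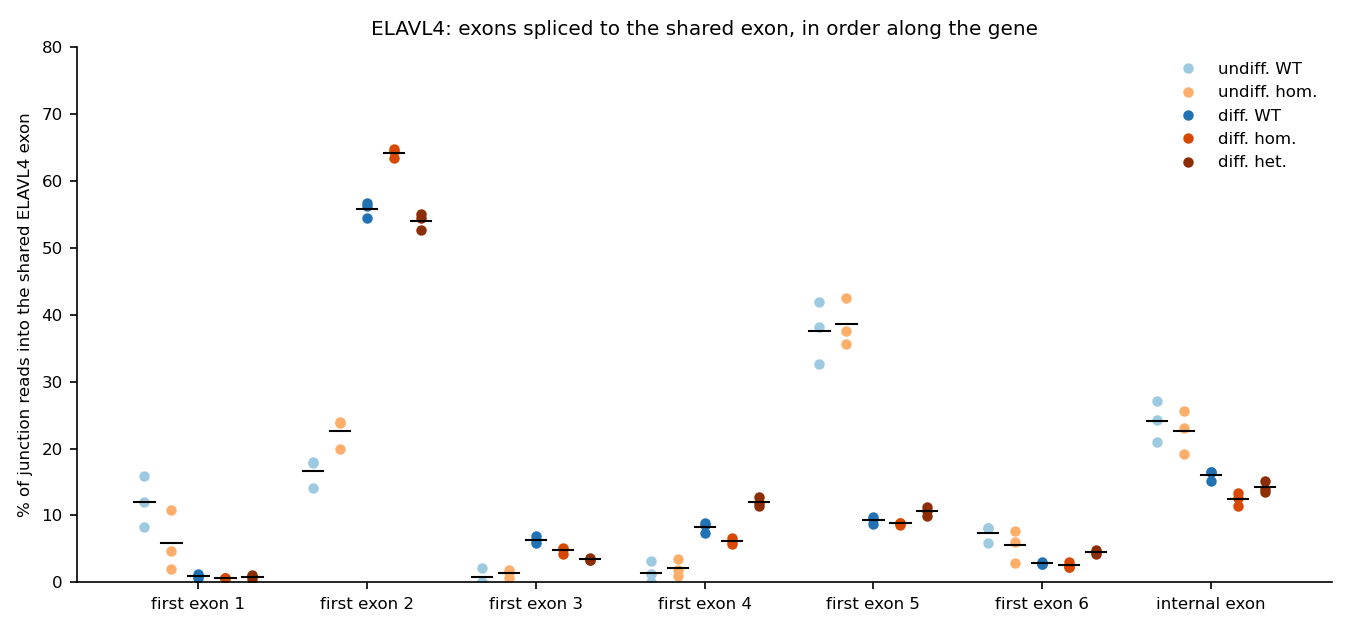
Share of junction reads into the shared ELAVL4 exon (vertical axis, %) that came from each of 6 first exons, numbered along the gene, and from the internal 87-nt exon, in SH-SY5Y libraries; points are libraries and bars are means of 3. First exon 5 leads in the undifferentiated groups, near 38%, and first exon 2 in the differentiated groups, between 54.05% and 64.2%.

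With D262V, ELAVL4 reads rose in undifferentiated homozygous cells and fell in differentiated heterozygous cells. In undifferentiated cells, its listed junction reads were 514, 455 and 543 per 1000000 listed junction reads in WT libraries and 904, 875 and 865 in homozygous libraries, with no overlap. The log2 difference was 0.90 (SE 0.125, edgeR adjusted p = 3.6e-05); ELAVL4 was the only member called of 5 tested by junction reads, against 10.8% of all genes tested. Gene counts, at 13 to 116 reads, gave a log2 difference of 0.42 (SE 0.579, edgeR adjusted p = 0.837), and none of 6 members tested was called by them with edgeR or DESeq2, against 3.67% of genes in edgeR; 1 of the 6, ELAVL3, had an unadjusted p under 0.05. In differentiated homozygous cells ELAVL4 did not pass by junction reads (log2 difference 0.11, SE 0.078, edgeR adjusted p = 0.314) or by gene counts (0.18, SE 0.153, adjusted p = 0.622). None of 8 members was called there by gene counts with edgeR or DESeq2, against 6.08% of genes in edgeR, and none had an unadjusted p under 0.05. The interaction of D262V with differentiation gave no call among 8 members with edgeR, against 4.5% of genes. ELAVL3 was nearest (log2 0.94, SE 0.303, edgeR adjusted p = 0.094); DESeq2 called it, and over the alternatives its adjusted p ran from 0.021 to 0.21.

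In differentiated heterozygous cells ELAVL4 was lower than in WT cells by both measures. Its gene count was 53.86, 59.12 and 51.65 CPM in WT and 29.69, 32.72 and 43.26 CPM in heterozygous libraries, so the groups did not overlap. The log2 difference was -0.65 (SE 0.156, edgeR adjusted p = 0.0039), and ELAVL4 was the only one of 8 members called, against 16.4% of genes. Its junction reads were 2068, 1993 and 2345 per 1000000 listed junction reads in WT libraries against 1650, 1429 and 1890 in heterozygous libraries (log2 difference -0.41, SE 0.115, edgeR adjusted p = 0.017). That second call was lost without WT library 1, 2 or 3 (adjusted p = 0.065, 0.051 and 0.073) or heterozygous library 2 (0.060), with log2 differences between -0.34 and -0.45. By junction reads 2 of 9 members were called, ELAVL4 and CELF4, against 24.8% of genes. Homozygous cells, at 68.12, 71.58 and 50.92 CPM, were above heterozygous cells for ELAVL4 (log2 difference 0.83, SE 0.156, edgeR adjusted p = 0.00040). In that comparison 2 of 8 members were called, ELAVL4 and CELF5, against 15.9% of genes. The homozygous and heterozygous comparisons share their WT libraries.

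First-exon use of ELAVL4 shifted by smaller amounts with D262V. In undifferentiated cells, first exon 2 took 12.73%, 0% and 7.41% of the reads entering the internal 87-nt exon in WT libraries. In homozygous libraries it took 21.62%, 41.27% and 22.82%. This shift of 21.86 points rested on 0 to 80 reads and did not pass (adjusted p = 0.42 in the authors' deposited table). First exon 6 changed there by -11.26 points (0.39 in the same table). Into the shared 241-nt exon, first exon 2 went from 16.64% to 22.59% (0.75). In differentiated homozygous cells, first exon 2 took 57.86%, 55.97% and 58.33% of the reads entering the internal 87-nt exon in WT libraries and 68.59%, 66.09% and 68.12% in homozygous libraries (adjusted p = 0.041 in the authors' deposited table). Junctions were called changed when that adjusted p was under 0.05, mean usage shifted by at least 10 points, the groups did not overlap and no library fell below 20 reads for the event. This junction was the only one of 79 eligible member junctions called in differentiated homozygous cells, against 1.42% of all eligible junctions. Its shift of 10.2 points falls just under 10 points without WT library 2 (9.505) or homozygous library 1 (9.72) or 3 (9.95). Into the shared 241-nt exon, first exon 2 was also higher in each homozygous library, 64.2% ± 0.7 against 55.8% ± 1.2, with an adjusted p of 0.092 in the authors' deposited table. In heterozygous cells first exon 2 was at 54.05% ± 1.3 against 55.7% ± 1.1. First exon 3 fell there from 6.35% ± 0.54 to 3.47% ± 0.20 (adjusted p = 0.0019 in the authors' deposited table), and first exon 6 rose from 2.80% ± 0.14 to 4.51% ± 0.33 (0.023 in the same table); both shifts are under 10 points.

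ELAVL1, the ubiquitous member, was not called in any comparison. Its log2 differences by gene counts with D262V were 0.13 (SE 0.233) in undifferentiated homozygous, -0.03 (SE 0.153) in differentiated homozygous, 0.17 (SE 0.153) in heterozygous and -0.33 (SE 0.238) in Flp-In cells. Its listed cassette exons were used in under 3% of reads. ELAVL2 had gene counts too low for a test. By junction reads it had 17.83, 5.451 and 10.30 per 1000000 listed junction reads in undifferentiated WT libraries and 5.828, 8.838 and 5.448 in homozygous ones, on 32 to 109 reads, and did not pass (log2 difference -0.62, SE 0.621, edgeR adjusted p = 0.636). An ELAVL2 exon of 39 nt (chr9:23693447-23693485) was joined upstream in 70.7% ± 4.9 of reads in differentiated WT and 54.2% ± 8.4 in heterozygous cells (adjusted p = 0.25 in the authors' deposited table).

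ELAVL3, the HuC gene, did not pass by counts but changed at an intron. Undifferentiated homozygous libraries had 33.16, 34.71 and 46.47 CPM, all below the WT libraries given above, with a log2 difference of -0.84 (SE 0.291, edgeR adjusted p = 0.167). In heterozygous differentiated cells, a 222-nt stretch (chr19:11460225-11460446) that the authors' intron retention table lists was spliced out in 41.67%, 32.61% and 61.76% of its reads, against 6.25%, 17.96% and 7.59% in WT cells. The stretch was called changed, by the rule that required groups without overlap (adjusted p = 0.027 in the authors' deposited table). These shares rest on 3 to 30 spliced reads per library, and at the other edge of the same stretch the spliced share was 9.35% ± 0.95 against 2.37% ± 1.70 (0.059 in the same table).

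Of the CELF genes, CELF4 had the largest shift among the called junctions of the 10 genes, in undifferentiated cells. An 84-nt exon (chr18:37259180-37259263, minus strand), whose length is a multiple of 3, shares its upstream edge with a listed 144-nt form (chr18:37259120-37259263). The junction entering either form from upstream took 22.70%, 20.37% and 9.30% of the reads leaving the upstream exon in WT and 59.88%, 75.76% and 70.10% in homozygous D262V libraries. The junction skipping both fell from 82.5% ± 7.2 to 31.4% ± 8.0 (adjusted p = 0.0056 for inclusion and 0.0054 for skipping in the authors' deposited table). The junction leaving the 84-nt exon itself took 25.16%, 22.08% and 31.58% of the reads into the downstream exon in WT against 60.37%, 68.99% and 61.33% in homozygous libraries (0.023 in the same table). That of the 144-nt form was at 9.46% ± 11.38 against 4.13% ± 7.16 (0.80), and skipping counted on this side was at 64.3% ± 7.3 against 32.3% ± 11.9 (0.26). The entering junction and that leaving the 84-nt exon moved the same way, by 51.1 and 37.3 points. Both were called, and the rule for a call required groups without overlap. Another CELF4 junction (chr18:37264757-37266531) fell from 100% to 89.5% ± 6.4 (0.048 in the same table). These were the 4 member junctions called of 52 eligible in undifferentiated cells, all in CELF4, against 2.99% of all eligible junctions. The 14 CELF4 junctions listed there together had 663, 496 and 419 reads in WT and 861, 792 and 946 in homozygous libraries. Each event held only a part of these reads. Fewer of the 4 junctions were called with a higher minimum of reads over the event, as given below. The exon was not in a listed event of the other 3 comparisons.

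CELF4 junction reads were also higher with D262V after differentiation, on few reads. The 4 junctions listed there had 74 to 148 reads per WT and 212 to 326 per homozygous library. Per 1000000 listed junction reads these were 2.657, 3.658 and 5.078 in WT and 7.991, 8.475 and 10.00 in homozygous libraries, with no overlap and a log2 difference of 1.13 (SE 0.222, edgeR adjusted p = 0.00011). CELF4 was the only one of 4 members called by junction reads in that comparison, against 32.7% of genes. In the heterozygous table the values were 10.58, 5.324 and 4.586 in heterozygous against 2.200, 3.023 and 4.296 in WT libraries, again with no overlap, and a log2 difference of 1.07 (SE 0.321, edgeR adjusted p = 0.023). That call was lost without WT library 1 or 2 (adjusted p = 0.110 and 0.072) or heterozygous library 1, which left a log2 difference of 0.64 (adjusted p = 0.166). CELF4 gene counts, of 220 to 502 reads in differentiated libraries, did not pass (log2 difference 0.27, SE 0.174, in homozygous and -0.07, SE 0.176, in heterozygous cells). In heterozygous cells, one of 2 donors 3 nt apart, joined to the same acceptor (chr18:37264754-37266531), took 76.2% ± 3.9 of the reads against 33.4% ± 16.1 in WT cells (adjusted p = 0.013 in the authors' deposited table), but 1 library had only 18 reads for that event, so it was not called. With differentiation of WT cells the same 4 junctions fell by 2.01 on the log2 scale (SE 0.372, edgeR adjusted p = 0.00096). They went from 63.25, 41.71 and 48.20 to 10.08, 13.89 and 19.28 per 1000000 shared junction reads, with no overlap. Without junctions whose usage changed, the value was -1.32 and the edgeR adjusted p 0.089. By gene counts CELF4 averaged 29.4 CPM in undifferentiated and 26.6 CPM in differentiated WT cells and was not called. The fall was therefore seen over these junctions only.

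CELF5, a brain-enriched CELF gene, had fewer spliced reads over 1 intron in heterozygous cells. A 112-nt intron (chr19:3293796-3293907) was spliced in 87.76%, 77.78% and 83.87% of reads in WT and 64.00%, 32.65% and 42.11% in heterozygous libraries. It was called changed, which required no overlap (adjusted p = 0.019 in the authors' deposited table, with 16 to 49 spliced reads per library). A minor alternative donor of CELF5 rose from 0.85% ± 0.32 to 3.80% ± 1.41 (0.012 in the same table). By gene counts CELF5 was at 18.85, 25.70 and 15.12 CPM in homozygous and 10.94, 13.64 and 11.13 CPM in heterozygous differentiated libraries, a log2 difference of 0.70 (SE 0.216, edgeR adjusted p = 0.026). Neither group passed against WT libraries, at 14.08, 16.76 and 17.52 CPM. The difference between them was lost in 5 settings, among them leaving out heterozygous library 1 or 3 or homozygous library 1 or 2 (adjusted p = 0.071, 0.065, 0.058 and 0.202) and fitting only these 2 groups (0.053).

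CELF1, the widely expressed CELF gene, was listed in all 4 junction tables and none of its junctions was called. Its log2 differences by junction reads ran from -0.05 (SE 0.240) in Flp-In cells to 0.26 (SE 0.287) in undifferentiated cells. In Flp-In cells none of 4 members was called by gene counts and none of 2 by junction reads with edgeR or DESeq2, against 5.84% and 16.5% of genes in edgeR, and none had an unadjusted p under 0.05; 0 of 11 eligible member junctions were called, against 1.8%. CELF2 was read in Flp-In cells at levels too low to be tested.

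In MBNL2, 2 alternative exons changed in splicing, while its amount did not pass the test. In heterozygous differentiated cells an alternative 54-nt exon (chr13:97356795-97356848, plus strand) was joined to the following exon in 28.57%, 24.32% and 21.35% of reads, against 63.64%, 46.91% and 55.26% in WT cells. An exon of 36 nt farther along (chr13:97365135-97365170) was joined to its next exon in 21.05%, 12.90% and 29.63% of reads, against 72.73%, 52.05% and 44.59%. Both lengths are multiples of 3. The 54-nt exon of the MBNL genes is known to favour nuclear localization of the protein. Groups without overlap were part of the rule for a call. Mean usage of the 2 exons was lower by 30.5 and 35.3 points (adjusted p = 0.018 and 0.047 in the authors' deposited table). The junctions skipping them rose by as much, and the junction entering the 36-nt exon fell from 45.1% ± 1.1 to 19.3% ± 3.9 (0.020 in the same table). The junction entering the 54-nt exon fell from 51.0% ± 9.6 to 22.7% ± 6.8 and missed the threshold (0.069). The least covered library had 38 reads for the 54-nt exon and 54 for the 36-nt exon. Total MBNL2 junction reads, 8.356, 5.924 and 6.521 per 1000000 listed junction reads in WT and 8.843, 6.972 and 10.25 in heterozygous libraries, overlapped and did not pass (log2 difference 0.28, SE 0.222, edgeR adjusted p = 0.392). With 5 in MBNL2, 2 in CELF5 and 2 in ELAVL3, 9 of 106 eligible member junctions were called in heterozygous cells, against 4.53% of all eligible junctions. MBNL2 was not listed in the other 3 tables, so its exons have no value there.

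**Figure D3:**
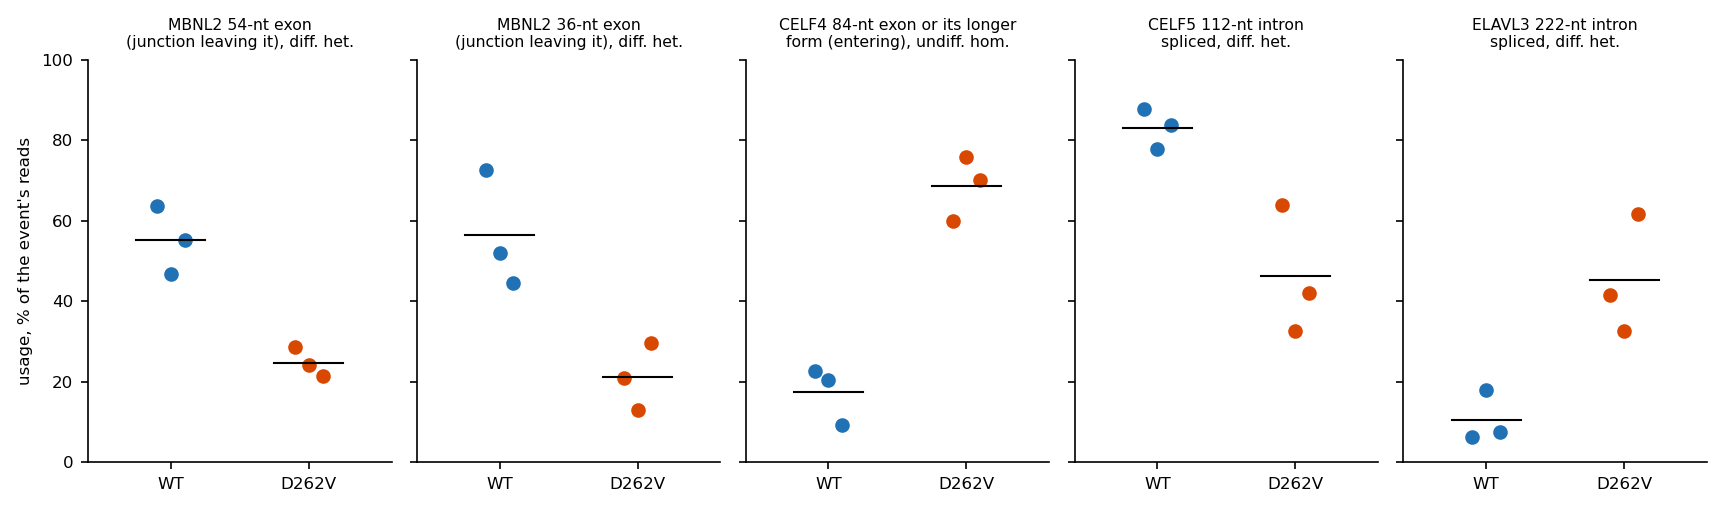
Usage (vertical axis, % of the event's reads) of 5 exons or introns of MBNL2, CELF4, CELF5 and ELAVL3 in WT and D262V SH-SY5Y libraries of the comparison named above each panel; points are libraries and bars are means of 3. All 5 were called changed, by a rule that required groups without overlap. The CELF4 junction, shared by the 84-nt exon and its 144-nt form, shows the widest shift, from 17.5% to 68.6%.

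MBNL1, the paralogue, had no junction called in any table. In Flp-In cells, where MBNL1 is read most, its 36-nt exon (chr3:152455541-152455576) was entered in 75.5% ± 4.8 of reads in WT and 81.8% ± 5.7 in D262V cells, with overlap. A 204-nt exon (chr3:152432716-152432919) was joined to the following exon in 84.9% ± 5.1 of reads in differentiated WT and 93.8% ± 1.9 in heterozygous cells (adjusted p = 0.31 in the authors' deposited table). MBNL1 did not pass in any comparison of amounts with D262V; its log2 difference in Flp-In cells was -0.24 (SE 0.238) by gene counts and 0.27 (SE 0.142) by junction reads. The MBNL1 and MBNL2 exons come from different tables, and the difference between them was not tested.

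**Figure D4:**
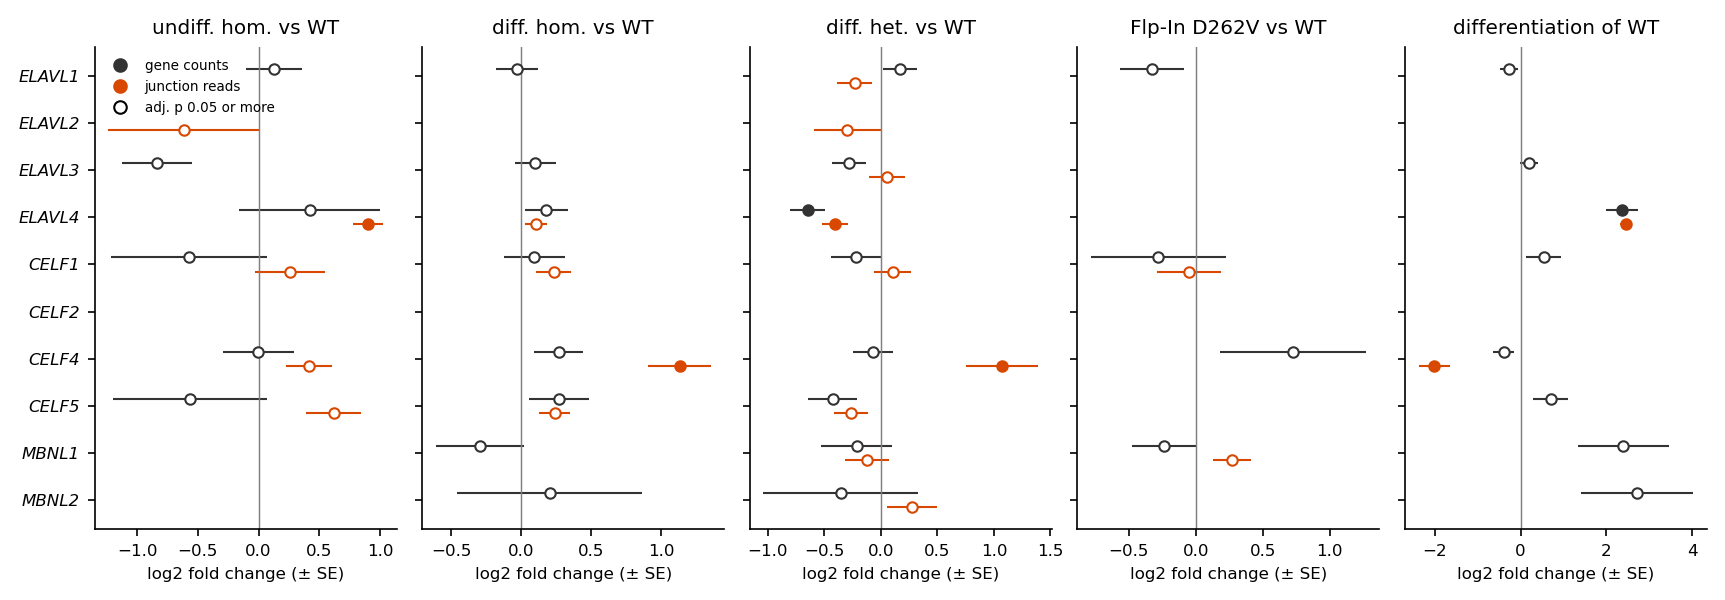
Log2 fold change ± SE (horizontal axes) of each gene in 4 comparisons of D262V with WT and in the differentiation of WT SH-SY5Y cells, by gene counts (dark) and junction reads (orange); filled points have an edgeR adjusted p under 0.05. ELAVL4 is filled in 3 panels and CELF4 in 3, and no gene is filled in the Flp-In panel.

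hnRNPA1 irCLIP clusters lay in all 10 genes in at least 1 line. ELAVL3, ELAVL4, CELF4 and CELF5 had 49, 214, 259 and 59 clusters in SH-SY5Y WT cells and 0 in both Flp-In lists. CELF2 had 0 in SH-SY5Y lists and 439 and 444 in Flp-In WT and D262V cells. MBNL1 had 227 and 202 clusters in SH-SY5Y and 229 and 225 in Flp-In WT and D262V cells, and MBNL2 190 and 178, and 196 and 216. CELF1 had 105 and 96, and 89 and 102. ELAVL1 had 40 and 35, and 42 and 32. ELAVL4 held the highest cluster score of the members, the authors' own value per cluster, at 3723 in WT and 3665 in D262V SH-SY5Y cells, and these top clusters overlapped. In WT cells it lay at chr1:50137394-50137547, between first exon 6 and the internal 87-nt exon.

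Most member clusters were found again in the D262V list. In SH-SY5Y cells 81.0% of the 1270 WT clusters were overlapped by at least 1 nt by a D262V cluster of the same gene (95% exact binomial interval 78.8% to 83.2%, counting error only), and 89.5% of 995 in Flp-In cells (87.5% to 91.4%). Over all clusters the shares were 84.8% and 83.0%, by a looser match in which a D262V cluster of any gene name on the same strand counted. ELAVL2 was the exception: 127 clusters in the WT list and 0 in the D262V list, where no cluster of any name lay in its span (chr9:23690104-23850601). Without ELAVL2 the SH-SY5Y share was 90.0% (88.1% to 91.7%), and each other gene had between 85.5% and 95.9%. Of 6058 gene names with at least 20 WT clusters in SH-SY5Y cells, 278 (4.59%) had 0 in the D262V list. In the RNA-seq, ELAVL2 gene counts were 0 in every undifferentiated homozygous and differentiated heterozygous library, and 1 to 6 in differentiated homozygous ones. They were 0 to 2 in undifferentiated and 2 to 12 in differentiated WT libraries. Junction reads were present in D262V libraries, at the low counts given above. The irCLIP labels give no zygosity or state, and the part of RNA level in the cluster counts was not tested. With 1 list per group there is no test of these differences.

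Clusters were counted within 500 nt of exons and introns with called junctions. No share over all exons was computed, so whether these numbers are low was not tested. The remaining called CELF4 junction was not examined. No cluster of any list lay within 500 nt of the 54-nt or the 36-nt exon of MBNL2 or the 84-nt exon of CELF4. The CELF5 intron had 1 cluster within that distance in each SH-SY5Y list, with scores of 32 in WT and 54 in D262V cells. The ELAVL3 stretch had 3 in each, with a highest score of 1043 in WT and 692 in D262V cells, next to but not inside it. The 87-nt exon of ELAVL4 had 2 in each SH-SY5Y list, with a highest score of 103 in WT and 81 in D262V cells, also outside the exon.

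**Figure D5:**
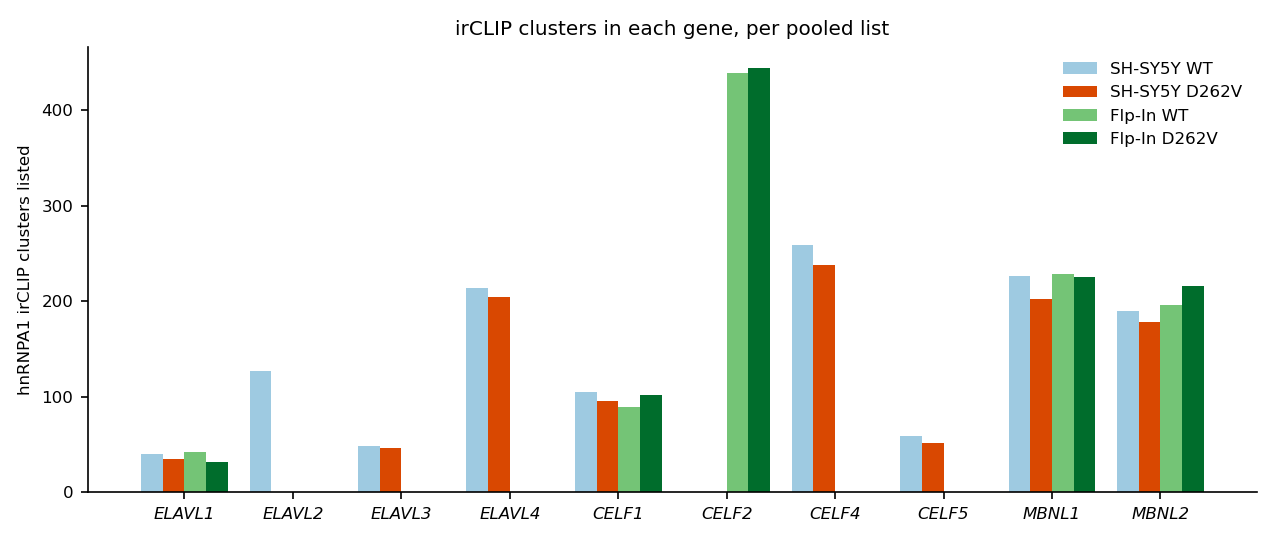
Number of hnRNPA1 irCLIP clusters (vertical axis, linear scale) named for each gene in the 4 pooled lists. Bars of WT and D262V lists are of similar height in each line for most genes. ELAVL2 had 127 in SH-SY5Y WT and 0 in the other lists, and ELAVL1 had 42 in Flp-In WT and 32 in Flp-In D262V.

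Genes that work with these proteins were followed by gene counts. With the strand of the counting not settled, higher and lower here refer to gene counts and are not read as mRNA amounts. Of 20 mRNAs known to be bound by ELAVL proteins, 16 were tested in differentiated cells. In heterozygous cells 1 was higher, VEGFA (log2 difference 1.58, SE 0.295, edgeR adjusted p = 0.00028), the angiogenic growth factor, and 2 were lower: BCL2 (-2.51, SE 0.194, adjusted p = 1.0e-10), an inhibitor of apoptosis, and ACTB (-0.42, SE 0.141, adjusted p = 0.041). These 3 of 16 stand against 16.4% of all genes. In homozygous cells BCL2 was lower (-0.91, SE 0.177, edgeR adjusted p = 0.00099) and GAP43, a growth cone protein whose mRNA is a classic ELAVL4 target, was higher (0.70, SE 0.132, adjusted p = 0.00068), 2 of 16 against 6.08% of all genes. The median log2 difference of the list was 0.13 in heterozygous and 0.00 in homozygous cells, against -0.02 and 0.01 over all genes tested. With differentiation of WT cells 2 of 18 rose, GAP43 (5.74, SE 0.375) and BCL2 (3.56, SE 0.623), and 4 fell, CCNA2, CCNB1, MYCN and VEGFA; 43.1% of all genes were called there. In undifferentiated and Flp-In cells 1 of 14 and 1 of 11 were called, PTMA (-0.85, SE 0.196) and HIF1A (-1.18, SE 0.356), both lower, against 3.67% and 5.84% of all genes.

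Of 22 genes with exons known to be regulated by MBNL or CELF proteins, 19 were tested in differentiated cells. None was called in homozygous cells; in heterozygous cells FN1 (log2 difference 0.90, SE 0.205) and ITGA6 (1.57, SE 0.497) were higher and GRIN1, an NMDA receptor subunit, lower (-0.86, SE 0.171, edgeR), so that 3 of 19 were called against 16.4% of all genes. With differentiation of WT cells 4 of 18 were higher, among them LDB3 (2.01, SE 0.320), and 2 lower, NUMA1 (-1.16, SE 0.124) and ATP2A1 (-0.90, SE 0.148), against 43.1% of all genes. GRIN1 was higher in Flp-In D262V cells (0.76, SE 0.164), and ATP2A1 lower in undifferentiated homozygous cells (-0.82, SE 0.172). Of 23 other regulators of mRNA stability and 3′ ends, 19 were tested in differentiated cells. PABPC1, the poly(A)-binding protein, was higher in homozygous (0.85, SE 0.185) and heterozygous (0.88, SE 0.186) cells, and TIAL1 lower in heterozygous cells (-0.68, SE 0.193). With differentiation 7 of 18 were higher and 2 lower. None of 10 passed in undifferentiated and none of 16 in Flp-In cells by edgeR. FN1 is also among the mesenchymal markers given above.

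Across all 21 libraries, the genes whose log2 CPM followed a member most closely were CHRNA5 for ELAVL3 (Pearson's r = 0.990), ANGPTL6 for ELAVL4 (0.987), JAKMIP3 for CELF4 (0.960), KLC2 for ELAVL1 (0.946) and ARID1A for CELF1 (0.824). For CELF5 it was XX-C00717C00720L.1 (0.982), for MBNL1 RP11-90B9.3 (0.951), for CELF2 ZNF235 (0.943), for MBNL2 FAM13A-AS1 (0.916) and for ELAVL2 KIF5B (0.875), the last 3 on few reads. These values describe libraries that differ in line, differentiation and depth together, and carry no test.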

How the data were processed

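The deposited gene tables hold raw read counts per gene from 21 RNA-seq libraries; hg38, Cufflinks, DESeq2, HTSeq and STAR 2.5.3a are named per the submitters' processing notes, with no strand setting in any source used here. The authors' deposited JUM tables give, for 4 comparisons, raw junction counts, percent usage per library and p-values with their adjusted values. The deposited irCLIP lists give 1 score per cluster and pool samples. Rows without a gene were left out of library sizes. For testing, edgeR 4.0.16 under R 4.3.3 was fitted to the counts (TMM, filterByExpr, quasi-likelihood, Benjamini-Hochberg adjustment over all genes, threshold 0.05), fitting all groups of a table together; SE is the log2 fold change divided by the square root of F. Distinct listed junctions were summed per gene outside the intron retention table and tested likewise. The fits were checked on simulated counts. Named genes are the 10 members, and of each list the genes passing the test. Members and lists were chosen with earlier results of these data known. Alternatives were DESeq2 1.42.0, RLE scaling, other filters, a replicate block and leaving out libraries. Intervals cover counting error only.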

Additional observations from a re-analysis of the deposited data

Results flagged for a closer look

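The difference between homozygous and heterozygous D262V cells after differentiation, taken against the same WT libraries, was tested directly and passed for 2 of 8 members tested, against 15.9% of all genes. ELAVL4 differed by 0.83 on the log2 scale, higher in all 3 homozygous libraries than in all 3 heterozygous ones. CELF5 differed by 0.70, again with no overlap between the groups. Both values come from edgeR's fit of the gene counts; 4 of 8 sympathetic neuron markers were higher in homozygous than in heterozygous cells, with a summed level of 1401 to 1789 CPM against 938.9 to 1256 CPM, and mesenchymal markers summed to 73.76 to 77.74 CPM against 90.41 to 96.04 CPM. The part of these markers in the result was not tested.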

How the results depend on the processing

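Of 812 log2 differences of the members under alternatives, 784 kept their side of the threshold, 13 lost the call and 15 gained it. Where either setting made a call, 0 reversed, and direction was not compared where neither did. All 84 recomputed junction usages kept their direction, which does not mean that each kept its call. The called ELAVL4 junction fell under 10 points without WT library 2 or homozygous library 1 or 3. All 70 levels moved by no more than 1 SD with TMM scaling. The number of members called by gene counts moved as follows. Between homozygous and heterozygous cells it was 2, and 1 when only the libraries of these groups were fitted or without heterozygous library 1 or homozygous library 1 or 2 (range 1 to 2). In heterozygous cells it was 1, and 2 without heterozygous library 3, when ELAVL3 joined (range 1 to 2). With differentiation it was 1, and 2 with no filter other than 1 read, 3 without undifferentiated WT library 2 (range 1 to 3). For the interaction it was 0, and 1 with DESeq2 and with no filter, and 1 without undifferentiated WT library 1 or 3 (range 0 to 1). In undifferentiated homozygous cells it was 0, and 1 with no filter, ELAVL3. By junction reads, heterozygous cells had 2 members called, 0 without WT library 1 or 2 and 3 without heterozygous library 3 (range 0 to 3). Differentiated homozygous cells had 1 (range 1 to 2, with 2 without WT library 3 or homozygous library 1), and undifferentiated homozygous cells 1 (range 1 to 2, with 2 without WT library 1). With differentiation it was 2, and 1 without junctions whose usage changed. The number of member junctions called was 4 in undifferentiated cells, 2 with at least 50 reads over the event (3 to 4 leaving out libraries); 1 in differentiated homozygous cells, 0 at a shift of at least 20 points (0 to 1); and 9 in heterozygous cells, 3 with at least 50 reads (9 to 11). Shares of WT irCLIP clusters found again were 88.95% in SH-SY5Y cells for clusters with at least the median score and 74.17% with an overlap of at least 50%, which gave 82.11% in Flp-In cells. Fewer libraries, genes or junctions enter some of these settings; otherwise the cause was not tested.

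Deviations of same-numbered libraries from their group means correlated between -0.06 and 0.08 in most comparisons, and at -0.02, 0.128 and 0.324 for heterozygous junction reads. In that last comparison a replicate block raised the genes called from 1553 to 2172 of 6259, with 2 members called either way. Differently numbered libraries were not compared, so whether the replicate numbers pair libraries there was not settled. With a replicate block the number of members called by gene counts was 0 in undifferentiated, differentiated homozygous and Flp-In cells and for the interaction, 1 in heterozygous cells and with differentiation, and 2 between homozygous and heterozygous cells. Low gene counts limit ELAVL2 and CELF2, which did not pass the filter of the main test. They also limit MBNL2, tested in differentiated cells, with differentiation and for the interaction on at most 24 reads per library. Whether depth or the way of counting set these low counts was not tested.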
